A study of Homo sapiens and Mus musculus with 16 samples.

Results

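Open chromatin near 9428 genes was compared between 2 settings, the loss of HNF4G from a human pancreatic cancer line and the step from a primary tumor line to a liver metastasis line in the mouse. The genes were those that carry the same symbol in both species, letter case ignored. Of 20046 human and 21951 mouse protein-coding genes, 15725 shared a symbol that belonged to 1 gene in each species. Of these, 9428 had at least 5 accessible regions in each of 4 region lists, counting those up to 50 kb from any of their start sites. The smallest number of same-symbol genes passed in the primary tumor list (10807) and the largest in the human control list (13169). Just inside the limit, 1391 genes had exactly 5 regions in their shortest list and median changes of 1.07 points in human and 0.849 in mouse, and just outside it 1352 genes had 4 and changes of 0.871 and 0.681 (the change is defined below).

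The regions came from the assay for transposase-accessible chromatin with sequencing (ATAC-seq), in which a transposase inserts adapters where DNA is not packed into nucleosomes. The series held 16 samples in 4 groups of 4, and each group was represented by 1 list of regions with a score per region. HPAF-II is a human pancreatic ductal adenocarcinoma line of the classical subtype. Its control cells had CRISPR-Cas9 as treatment and the genotype WT (118107 regions), and its HNF4G-KO cells had HNF4G disrupted by CRISPR-Cas9 and were a pool of single-cell clones (97047 regions). The mouse lines were an untreated KPC primary tumor line (68074 regions) and an untreated KPC liver mets line (80843 regions). KPC tumors arise in the pancreas of mice that carry oncogenic alleles switched on by a pancreatic Cre, and both lines carry the genotype label WT. The labels give no animal age and no time in culture.

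HNF4G and its paralogue HNF4A are nuclear receptors that bind DNA and control genes of the gut, liver and pancreatic epithelium. They share many sites with the FOXA factors, which can bind DNA in closed chromatin, and HNF4A is a marker of the classical subtype of pancreatic cancer. The study asked about HNF4G in primary tumors and FOXA1 in metastasis, and the comparison asks whether chromatin near a gene moved the same way, the opposite way or without relation in the 2 settings.

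With 1 list per group there were no replicate values, so no difference in this text has a replicate error or a p-value, and every correlation across genes is a description. Read depth was unknown, since the files hold regions and scores and no read totals. The start sites of KRT8, KRT18, KRT19, EPCAM and CDH1, the markers of ductal epithelium, lay in a region in all 4 lists. ALB, the defining hepatocyte gene, had no start site region in any list, and neither had PTPRC, CD3E, COL3A1, DCN or CDH5. Of the 4 fibroblast markers 2 had a start site region in both human lists and 1 in both mouse lists. The human lists had none of the 3 endothelial markers and the mouse lists had 2. TTR, a hepatocyte marker, had a start site region in every list but that of the mets line.

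Between 51.1% and 65.2% of the regions of a list lay near a gene kept, and 45.2% to 51.5% of those lay near 2 or more such genes, so neighbouring genes share regions. A region was called shared when it overlapped a region of the other list of its species by 1 bp, and one-list otherwise. Near genes kept, promoter regions (those at most 1 kb from a start site) were one-list less often than distal ones in every list. The control list had 11.6% control-only among 16910 promoter regions and 24.3% among 43461 distal regions, and the mets list had 6.94% mets-only among 14650 and 17.2% among 34921.

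Sequences of single regions show what these values rest on. The first 3 pairs are genes that held both an HNF4 sequence in a control-only human region and a FOXA sequence in a mets-only mouse region. They ranked highest among such genes by the lower score percentile of the pair, with a few chromosomes not considered. The control-only and mets-only regions shown had percentiles of 34.8 and 43.7 for CCDC6, 33.0 and 43.9 for ATL2, and 40.9 and 27.3 for ARHGEF28. All of these lay below the middle of their lists. Each window extends up to 40 bases either side of the match, on the strand that reads as the motif, with the motif in capitals (CAAAGTCCA for HNF4, TGTTTAC for FOXA).
CCDC6, control-only, intron of CCDC6, hg38 chr10:59868864-59868952, minus strand: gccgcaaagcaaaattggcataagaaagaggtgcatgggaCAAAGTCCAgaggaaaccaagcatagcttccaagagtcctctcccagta
Ccdc6, mets-only, intergenic, mm10 chr10:70202789-70202875, minus strand: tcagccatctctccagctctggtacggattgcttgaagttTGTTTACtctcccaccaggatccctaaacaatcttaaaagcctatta
ATL2, control-only, intergenic, hg38 chr2:38285192-38285280, plus strand: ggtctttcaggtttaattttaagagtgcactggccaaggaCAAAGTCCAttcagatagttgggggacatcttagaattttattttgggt
Atl2, mets-only, intron of Atl2, mm10 chr17:79862154-79862240, plus strand: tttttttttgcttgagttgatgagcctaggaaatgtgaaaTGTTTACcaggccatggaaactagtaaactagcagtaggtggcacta
ARHGEF28, control-only, intron of ARHGEF28, hg38 chr5:73792803-73792891, minus strand: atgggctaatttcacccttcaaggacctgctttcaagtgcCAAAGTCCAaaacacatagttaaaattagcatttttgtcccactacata
Arhgef28, mets-only, intron of Arhgef28, mm10 chr13:98149639-98149725, minus strand: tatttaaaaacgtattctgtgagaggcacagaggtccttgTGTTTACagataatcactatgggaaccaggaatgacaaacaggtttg

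The other sequences are the centres (up to 150 bases) of the highest scoring control-only and mets-only regions near DOCK10 and SLC39A8, the most extreme of the genes low in KO and high in mets by both measures below. A FOXA or HNF4 motif, where present, is in capitals.
DOCK10, control-only, intron of DOCK10, hg38 chr2:224927847-224927996, plus strand: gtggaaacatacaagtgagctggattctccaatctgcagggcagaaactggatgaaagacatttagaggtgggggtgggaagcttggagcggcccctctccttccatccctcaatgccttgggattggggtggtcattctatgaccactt
Dock10, mets-only, intron of Dock10, mm10 chr1:80512690-80512839, plus strand: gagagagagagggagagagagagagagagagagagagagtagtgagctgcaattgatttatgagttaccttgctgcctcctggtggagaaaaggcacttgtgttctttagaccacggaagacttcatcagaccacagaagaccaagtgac
SLC39A8, control-only, intron of SLC39A8, hg38 chr4:102299808-102299957, plus strand: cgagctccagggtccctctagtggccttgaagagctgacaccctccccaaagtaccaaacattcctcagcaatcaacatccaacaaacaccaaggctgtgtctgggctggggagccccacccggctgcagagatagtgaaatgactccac
Slc39a8, mets-only, intergenic, mm10 chr3:135816775-135816924, plus strand: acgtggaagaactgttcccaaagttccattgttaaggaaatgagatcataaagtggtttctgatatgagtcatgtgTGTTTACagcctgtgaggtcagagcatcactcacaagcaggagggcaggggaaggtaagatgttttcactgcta

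Changes at regions held by both lists of a pair had a rank correlation close to 0 between the settings. For each gene, the shared-region change was the median, over its shared regions, of the score percentile in the second list minus that in the first, with percentiles ranked among the shared regions of the pair. The median gene had a change of 1.91 points in KO against control (quartiles -0.313 and 4.69) and of 0.985 points in mets against tumor (quartiles -1.49 and 3.68). Across the 9428 genes Spearman's rho between these changes was 0.0110, and it was below 0 under 2 of 17 other settings. The lowest 10% of genes by the human change had a median human change of -4.73 and a median mouse change of 0.913 points, and the highest 10% had 9.24 and 0.940 points.

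The values of a gene repeated little within a species. When the regions of a gene were split into odd and even ones along the chromosome, the changes of the 2 sets correlated with a rho of only 0.153 in the human and 0.130 in the mouse comparison. The other measures repeated less, with -0.0179 and 0.0477 for the net one-list share and 0.0527 and 0.0678 for turnover (both defined below), so the net shares of single genes given below describe these lists only. Other features of the genes were shared more between species. The number of regions near a gene in the control list and in the primary tumor list had a rho of 0.428, and the median score percentile a rho of 0.143. Points of such a correlation share regions with neighbouring genes.

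Directions gave the same picture. The changes had the same sign near 55.7% of the genes (95% Wilson interval 54.7% to 56.7%, which covers counting only), where 54.9% follows from the share of positive changes in each comparison. Positive changes prevailed in both, near 72.0% of genes in KO against control and near 61.2% in mets against tumor. Set against the median gene of each comparison, 50.6% of 9425 genes lay on the same side, with 2385 below and 2384 above in both, and 2328 in each of the opposing groups.

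The extremes met about as often as the margins give. The lowest and the highest 20% of genes (1886 each) were set apart in either comparison, so that the background is 20% by definition. The lowest genes (limits -0.936 points in KO and -2.23 in mets) had 392 genes in common and the highest (5.34 and 4.46) had 371, where the product of the margins is 377.28. The opposing corners held 391 genes, low in KO and high in mets, and 396 genes, high in KO and low in mets.

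**Figure D1:**
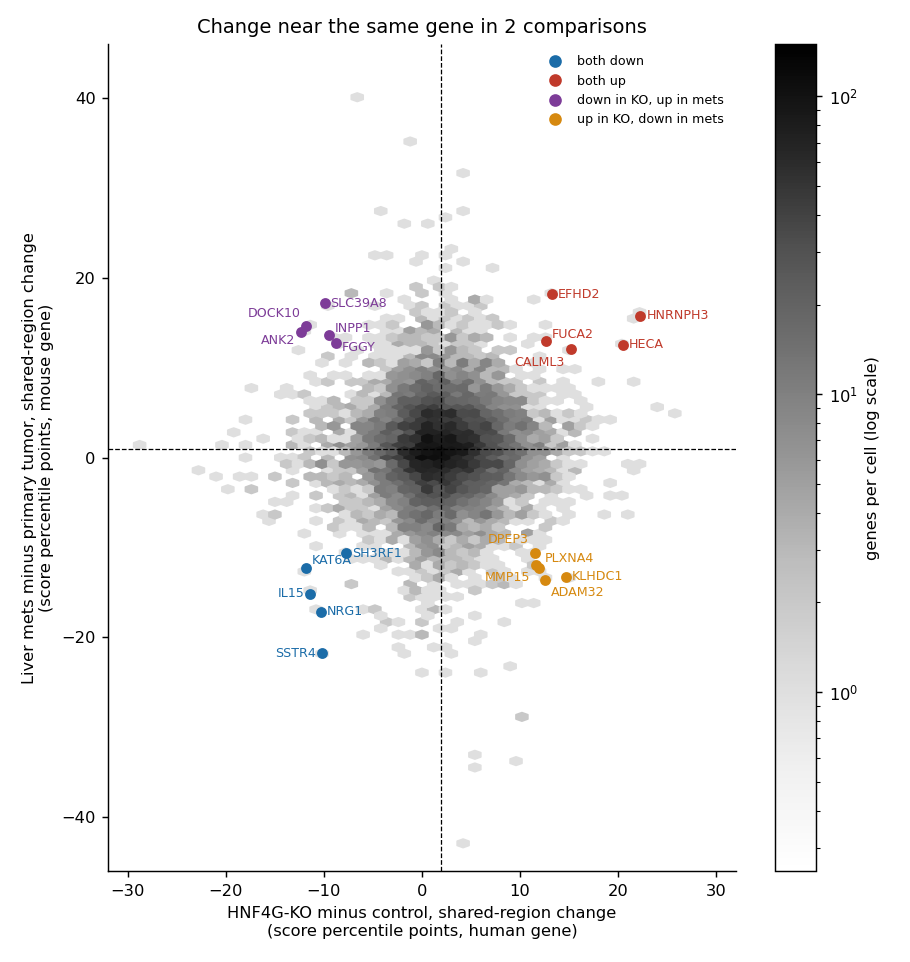
Shared-region change in score percentile points near each of 9428 genes, KO minus control for the human gene (x axis) and liver mets minus primary tumor for the mouse gene (y axis). Grey shows the number of genes per cell on a log scale, dashed lines mark the median gene (1.91 and 0.985 points) and coloured points are the 5 most extreme genes of each corner, chosen for these values. The cloud has no tilt (rho 0.0110).

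The net balance of one-list regions had a rho close to 0 too, slightly below it. Near 76.1% of genes the control list held the larger one-list share of the human pair, and near 51.3% the mets list held the larger one of the mouse pair. The median gene had 16.7% of its control regions in the control list only and 0% of its KO regions in the KO list only, and 5.56% of its tumor regions in the tumor list only and 11.1% of its mets regions in the mets list only. The net one-list share, second-only minus first-only, had a median of -12.5 percentage points in the human and 4.17 in the mouse comparison, and its rho between species was -0.0378, with a sign that turned under 3 of 15 other settings. Among the single shares the highest rho was 0.0797, between control-only and mets-only. Control-only and tumor-only, the 2 losses, had 0.0279, the 2 gains (KO-only and mets-only) 0.0293, and KO-only with tumor-only 0.0119.

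Along the control-only share the mets-only share differed little. Near the 1282 genes with no control-only region the mean mets-only share of the mouse gene was 10.9%, and near the 832 genes in the highest 10% by control-only share (median 40%) it was 13.3%. The difference was small beside the range among genes, whose quartiles in that highest 10% were 0% and 20%. With genes cut into 5 classes by net share, ties kept together, the lowest class in KO held 20.2% of genes (-23.5 points or less) and the highest 23.9% (0 or more), and in mets the lowest and the highest held 20% each (-6.21 or less, 15.8 or more). The corner of genes lowest in KO and highest in mets held 458 genes, 1.2 times the 381.7 from the margins and 24.0% of the lowest class in KO. The other corners held 369 (both lowest), 463 (highest in KO, lowest in mets) and 425 (both highest), or 0.970, 1.03 and 0.939 times the margins.

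Turnover, the one-list regions of either kind as a share of all distinct regions near a gene, has no direction and gave the highest rho of the 3 measures, 0.0874. The median was 21.4% in the human and 16.7% in the mouse comparison. The lowest classes by turnover shared 475 genes and the highest 478, 1.19 and 1.17 times the margins, and the mixed corners held 341 and 355, 0.823 and 0.899 times. The lowest 10% of genes by human turnover had a mean mouse turnover of 16.1%, and the highest 10% had 19.6%. Turnover went with the baseline score of the gene, with a rho of -0.470 against the median score percentile in the control list and of -0.202 in the primary tumor list. Held against the region counts and baseline scores of both species, the rho of turnover was 0.0422 and that of the net share 0.00259.

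**Figure D2:**
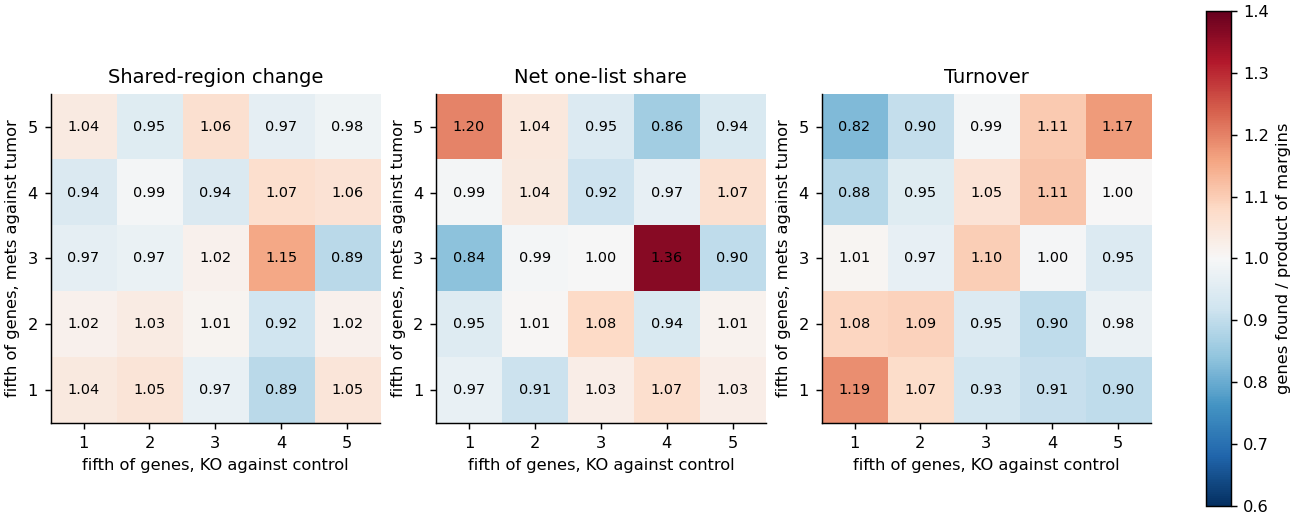
Number of genes in each pair of 5 classes from lowest (1) to highest (5), KO against control (x axis) and mets against tumor (y axis), divided by the product of the margins, for the shared-region change, the net one-list share and turnover. A value of 1 is the product of the margins. Turnover exceeds it along the diagonal (1.19 and 1.17 in the corners), and the net share in the corner lowest in KO and highest in mets (1.2), while its largest value, 1.36, joins class 4 in KO with class 3 in mets (223 genes).

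DOCK10 and SLC39A8 were the most extreme of the genes low in KO and high in mets, by the shared-region change and by the net share alike. DOCK10 encodes an exchange factor for small GTPases (human chr2:224765090-225042468, minus strand, hg38). The control list held 18 regions near it and the KO list 9, with 10 in the control list only and none in the KO list only. Near mouse Dock10 (chr1:80501073-80758527, mm10) the primary tumor list held 8 regions and the mets list 16, with 8 in the mets list only and none in the tumor list only. Its shared-region changes were -11.8 points in KO and 14.6 in mets.

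The one-list regions near DOCK10 were weak in human and of middling score in mouse. The 10 control-only regions had score percentiles between 0.478 and 33.0 in the control list, whereas the shared ones lay between 3.24 and 95.6. The 8 mets-only regions near Dock10 lay between 11.7 and 66.0 in the mets list. The strongest shared human region, at percentile 95.6, had a change of -21.8 points.

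SLC39A8 encodes a zinc and manganese importer of the plasma membrane (human chr4:102251080-102431258, mouse chr3:135825279-135888572). The control list held 12 regions and the KO list 6, with 6 control-only. The primary tumor list held 5 and the mets list 9, with 4 mets-only. Its shared-region changes were -9.92 points in KO and 17.1 in mets, and the mets-only region with the FOXA sequence printed above lay 8.27 kb from a start site at score percentile 51.1.

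**Figure D3:**
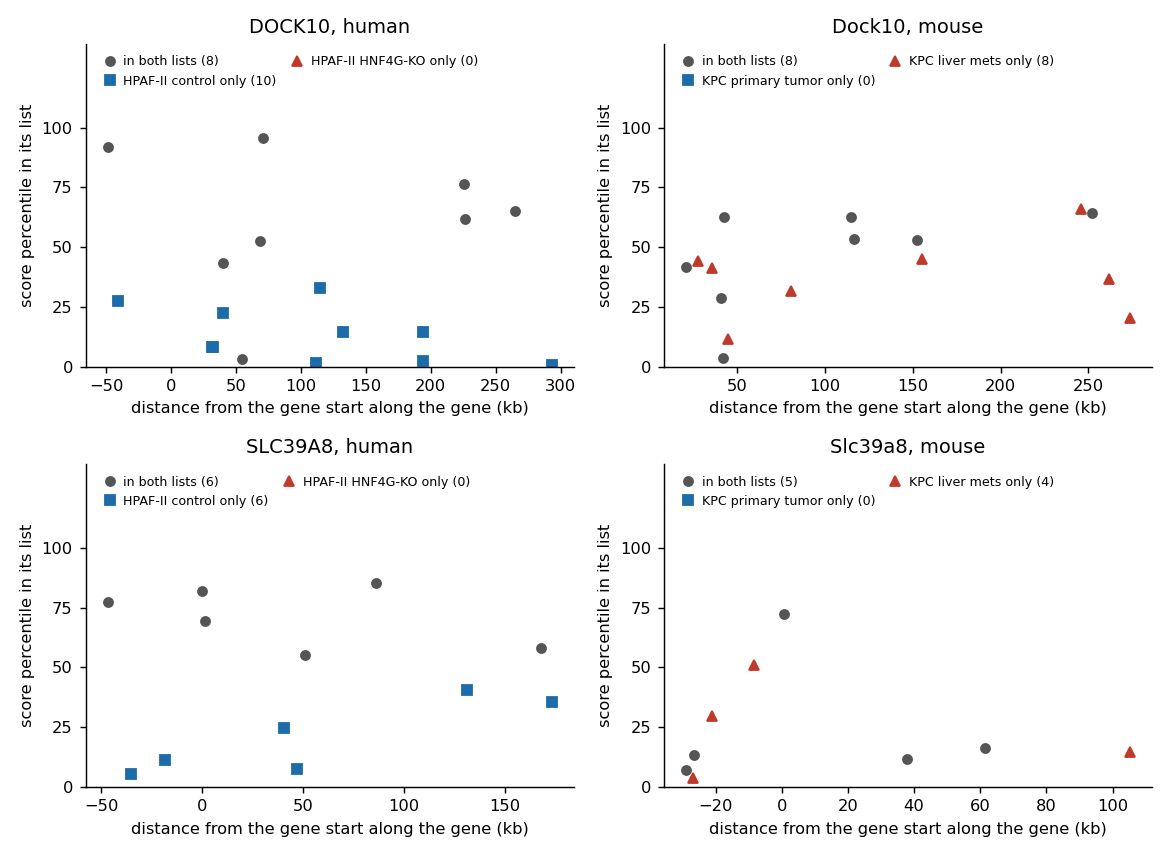
Regions near DOCK10 and SLC39A8 in human (left) and mouse (right) by distance from the gene start in kb (x axis) and score percentile in their list (y axis). Circles are regions in both lists, placed by the first list, and squares and triangles are regions in the first or the second list only. Human one-list regions are all control-only (10 and 6) and mouse ones all mets-only (8 and 4).

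The same corner held ANK2, an ankyrin that anchors membrane proteins, INPP1, an inositol phosphatase, and FGGY, a carbohydrate kinase. ANK2 had 22 control and 13 KO regions with 9 control-only, and 15 tumor and 25 mets regions with 10 mets-only. Its shared-region changes were -12.3 and 14.0 points. INPP1 had changes of -9.45 and 13.6 points and FGGY of -8.78 and 12.7. By net share ANKS1B was the third gene of this corner, with 12 of 22 control regions control-only and 5 of 10 mets regions mets-only, with shared-region changes of only -0.485 and 0.849 points.

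Genes low in both settings were led by IL15, a cytokine that supports natural killer and T cells, and NRG1, a ligand of the ERBB3 and ERBB4 receptors. Near IL15 the control list held 10 regions and the KO list 7, and the tumor list 10 and the mets list 8. Its shared-region changes were -11.4 points in KO and -15.2 in mets. Near NRG1 the values were -10.3 and -17.2 points. SSTR4, a somatostatin receptor, had -10.2 and -21.7 points, KAT6A, a histone acetyltransferase, -11.9 and -12.3, and SH3RF1, a scaffold of stress kinase signalling, -7.76 and -10.6. The measures differed for SSTR4 in KO. Its net share there was 15.4 points, with 2 of 13 KO regions KO-only and no control-only region, and in mets it was -19.0.

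Chromosomes moved with this corner. Mouse chromosome 8 carried 4 of these 5 genes and its median gene had a change of -3.13 points in mets, against 0.985 over all genes. It held 5.67% of all genes kept, 11.5% of those in the lowest 20% of both comparisons, and 21.0% of those highest in KO and lowest in mets. Human chromosome 4, home of IL15 and SH3RF1, had a median change of -2.04 points in KO. All 5 genes lay below the median of their own chromosome in both species, IL15 by -9.38 and -12.0 points.

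Genes high in both settings were HNRNPH3, an RNA-binding protein, EFHD2, a calcium-binding protein, FUCA2, a fucosidase, HECA, and CALML3, a calmodulin-like protein. HNRNPH3 had only 5 or 6 regions in each list and changes of 22.3 points in KO and 15.8 in mets. EFHD2 had changes of 13.3 and 18.2 points although 6 of its 14 control regions were control-only. HNRNPH3, FUCA2 and HECA lie on mouse chromosome 10, whose median gene had a change of 4.46 points, and all 5 genes lay above the medians of their own chromosomes.

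Genes high in KO and low in mets were KLHDC1, ADAM32, PLXNA4, MMP15 and DPEP3. PLXNA4 is a semaphorin receptor of axon guidance, and had changes of 11.9 and -12.2 points. The net share did not go with these changes. In KO it was -33.3 points for KLHDC1 and ADAM32, -41.7 for PLXNA4 and -12.5 for DPEP3, where the median gene had -12.5. In mets it was 12.5 for KLHDC1 and 0 for ADAM32, PLXNA4 and DPEP3. MMP15, a membrane-bound matrix metalloproteinase, differed between the measures too. Its shared-region changes were 11.7 points in KO and -11.9 in mets, yet its one-list regions lay in the first list of both pairs, with 6 of 14 control regions control-only and 4 of 8 tumor regions tumor-only. ADAM32, MMP15 and DPEP3 lie on mouse chromosome 8.

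By net share the genes lowest in both settings were APP, the amyloid precursor, HMMR, a hyaluronan receptor, and MMP15. APP had 14 control and 7 KO regions with 8 control-only, and 7 tumor and 6 mets regions with 2 tumor-only. The highest in both were WNK2, a kinase of ion transport, ANGEL1 and PRSS50. WNK2 had 4 of 15 KO regions KO-only and 6 of 12 mets regions mets-only. TSTD2 and CD93 were high in KO and low in mets, with net shares of 16.7 and -28.6, and of 15.4 and -36.4 points. CD93 and SSTR4 lie close together on human chromosome 20 and had the same numbers of human regions, 9 control and 13 KO.

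HNF4G itself could not enter the comparison, because the primary tumor list held only 4 regions near it. The control list held 9 regions near HNF4G with 3 control-only, and the KO list 6. Near mouse Hnf4g the mets list held 7 regions with 3 mets-only, and all 4 tumor regions were shared. The shared-region changes were -3.38 points in KO and 16.1 in mets, and that of the region over the human start site was 4.93 points. Open chromatin near the gene is no measure of its protein, so this does not check the knockout. FOXA1 was left out too, with 3 control and 4 KO regions, none of them one-list. Near mouse Foxa1 2 of 7 tumor regions were tumor-only and 1 of 8 mets regions mets-only, a net share of -16.1 points, and the shared-region change was -2.01 points.

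HNF4A, FOXA2, FOXA3, GATA6, PRMT1 and MYC passed. HNF4A had 16 control regions with 3 control-only and 16 mets regions with 4 mets-only, and changes of 1.06 and -0.974 points. FOXA2 had changes of 3.70 points in KO and -5.82 in mets, and FOXA3 of 4.35 and 0.717. GATA6, a lineage factor of the classical subtype, was low in both, with -2.26 and -7.34 points and net shares of -33.3 and -10.7. Mouse Gata6 lies on chromosome 18, whose median gene had -1.89 points in mets. PRMT1, an arginine methyltransferase, had 6 of 19 control regions control-only and 2 of 14 mets regions mets-only. MYC had changes of 7.69 and 2.44 points.

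In 18 lists of genes by pathway or cell identity, members agreed and opposed about equally often, as genes overall did. A member agreed when it lay on the same side of the median gene in both settings, as 50.6% of 9425 genes did. Members of a list can share regions, so they are not separate counts. Over the lists 198 members agreed and 196 opposed, counting a gene once for each of its lists. Agreeing members were more numerous in 9 lists, opposing ones in 7, and 2 were even. The net share had a median below 0 in KO for all 18 lists and above 0 in mets for 13, with 0 for the other 5.

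Ligands, receptors and relays of the EGFR family and RAS pathway agreed most often, 18 of 26 genes, with 9 below and 9 above in both. Over all genes 50.6% agreed. The ligands NRG1 (-10.3 and -17.2 points), EREG (-8.25 and -5.83), TGFA (-5.42 and -8.82), AREG (-1.34 and -1.41) and HBEGF (0.701 and -2.02) all lay below the median gene in both. AREG and EREG lie close together on human chromosome 4, whose median gene had -2.04 points. The feedback phosphatases DUSP5 (11.3 and 6.38) and DUSP6 (5.79 and 4.65) and the receptor ERBB2 (8.93 and 2.14) lay above the median gene of all genes in both. Others of these kinds did not. EGFR (-0.332 and -2.05) and SPRY1 (-3.57 and -4.62) lay below it in both, and ERBB3 (1.08 and 6.45) and SPRY4 (5.44 and -5.50) opposed. By change, 9 of the 26 genes were among the highest 20% in KO and 9 among the lowest 20% in mets.

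Among 19 genes of the TGF-beta pathway 13 agreed, where 50.6% of all genes did. LTBP1, which tethers latent TGF-beta to the matrix, was low in both with -5.94 and -5.76 points, and 8 of its 19 control regions were control-only. SMAD3, the signal transducer, had 5.91 and 7.04 points, and SKIL, an inhibitor of the SMADs, 7.68 and 6.10. The inhibitory SMAD6 opposed with -1.96 and 5.47 points, and the ubiquitin ligase SMURF2 with 4.33 and -12.7.

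Lineage transcription factors opposed more than they agreed, 11 of 17 against 6, and none was above the median gene in both. Over all genes 4656 opposed and 4769 agreed. ONECUT2 had -2.27 points in KO and 4.08 in mets. GRHL2, a factor of epithelial identity, had 0.300 and 14.1 points, and PDX1, the pancreatic factor, 10.2 and 0.299. GATA6 was below in both. Ribosomal protein genes, a housekeeping set, opposed in 21 of 30 and glycolysis and hypoxia genes in 15 of 23. RPL5 had -7.57 and 8.53 points, and RPLP0 7.54 and 4.79. In the second set LDHA, lactate dehydrogenase, was low in both with -3.90 and -3.19 points, and PGK1, a glycolytic kinase, opposed with -2.56 and 5.59.

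Epithelial junction genes had many members low in KO and many high in mets by the net share, but these were mostly different genes. Of 20 members 9 were in the lowest class in KO and 8 in the highest in mets, where these classes held 20.2% and 20% of all genes, and the list medians were -17.2 and 9.65 points against -12.5 and 4.17. Both held for JUP, MARVELD2 and TJP1, 3 genes where the margins of the list give 3.6. TJP1, a scaffold of the tight junction, had 8 of 24 control regions control-only and 5 of 19 mets regions mets-only, with shared-region changes of -3.56 and 9.37. CLDN7, a claudin, was above the median gene in both at 5.32 and 7.46 points. OCLN, a transmembrane protein of that junction, had net shares of -16.7 and 33.3 points and a mouse change of 18.5. PARD3, a polarity protein, went the other way in mets with a net share of -20.3.

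Integrin and adhesion genes had the lowest median net share of the 18 lists in KO, -23.3 points against -12.5 over all genes, with 13 of 27 members in the lowest class, which held 20.2% of all genes. Their mouse median was 8.04 points against 4.17, with 8 members in the highest class and 5 in the lowest, which held 20% of all genes each. Lowest in KO and highest in mets together were 4 members, where the margins of the list give 3.85. VCL, which links integrins to actin, had net shares of -24.1 and 27.3 points. ITGB1, the common beta chain, had -28.9 and -12.5, and TNS1, a focal adhesion protein, -36.4 and -19.2, both low in both. TLN2, a talin, had 9 control-only regions among 28 and 6 mets-only among 12, with shared-region changes of -5.32 and -5.76 points. ITGA2, a collagen receptor chain, opposed with -4.68 and 10.7.

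Classical and basal subtype genes agreed and opposed about equally often, while basal genes had the highest median net share of the 18 lists in KO, -2.74 points against -12.5 over all genes. Of 16 basal genes 8 were in the highest net class in KO, which held 23.9% of all genes. That class began at 0, and CST6, KRT14, KRT17 and SCEL had a net share of exactly 0. Of 15 classical genes 5 were in the lowest net class in mets and 4 in the highest, each of which held 20% of all genes. The classical median net share in mets was 7.78 points, against 4.17 over all genes. Of 15 classical genes 7 agreed and 8 opposed, and the trefoil factor genes TFF1 and TFF2 had net shares of -15.4 in KO and -38.5 in mets. Both lie in 1 cluster and share regions. TFF3, a further trefoil factor gene in the lowest class in mets, had -0.758 and -36.4. DDC was low in both with -1.82 and -1.43 points, and REG4 opposed with 7.77 and -2.40. Of 16 basal genes 9 agreed and 7 opposed. LEMD1 opposed with 6 of 16 control regions control-only and 7 of 12 mets regions mets-only, and TNS4 was high in both with 6.87 and 4.64 points. Lipid metabolism and HNF4 target genes agreed in 10 of 19. ACSL1, an acyl-CoA synthetase, had -13.3 and -4.18 points, ACACA, the enzyme that makes malonyl-CoA, -2.91 and -4.51, and ACADM, an enzyme of fatty acid oxidation, 8.62 and -6.59.

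The remaining lists split as follows between agreeing and opposing members. Interferon and antigen presentation genes had 13 and 12, nuclear receptors 13 and 11, axon guidance genes 13 and 17, and Wnt pathway genes 10 and 9. FOXA1 cofactors and chromatin regulators had 13 and 13, MYC network and cell cycle genes 10 and 10, AP-1, TEAD and RUNX factors 11 and 12, and epithelial-mesenchymal transition genes 7 and 8. JAK1 (-3.81 and -4.39), NR3C1, the glucocorticoid receptor (-2.52 and -4.54), CDH2 (-1.73 and -19.8) and CDKN2B (-2.96 and -7.18) were low in both. UNC5B (8.04 and 9.70), AXIN2 (5.26 and 13.7) and AMOTL2 (6.35 and 4.63) were high in both. ISG15 (6.67 and -8.22), RXRB (4.67 and -2.29), TCF7 (5.34 and -3.97) and ESRP2, a splicing factor of epithelia (6.93 and -3.27), were high in KO and low in mets. ESRP2 lies on human chromosome 16 and mouse chromosome 8, whose median genes had 3.62 points in KO and -3.13 in mets. Mouse chromosome 18, which carries Nr3c1 and Cdh2, had a median change of -1.89 points in mets. SEMA3A (-1.30 and 6.99), ATF3 (-6.59 and 4.67) and E2F7 (-3.03 and 11.3) were low in KO and high in mets. KMT2C, a histone methyltransferase, was low in both at -5.42 and -4.94 points.

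**Figure D4:**
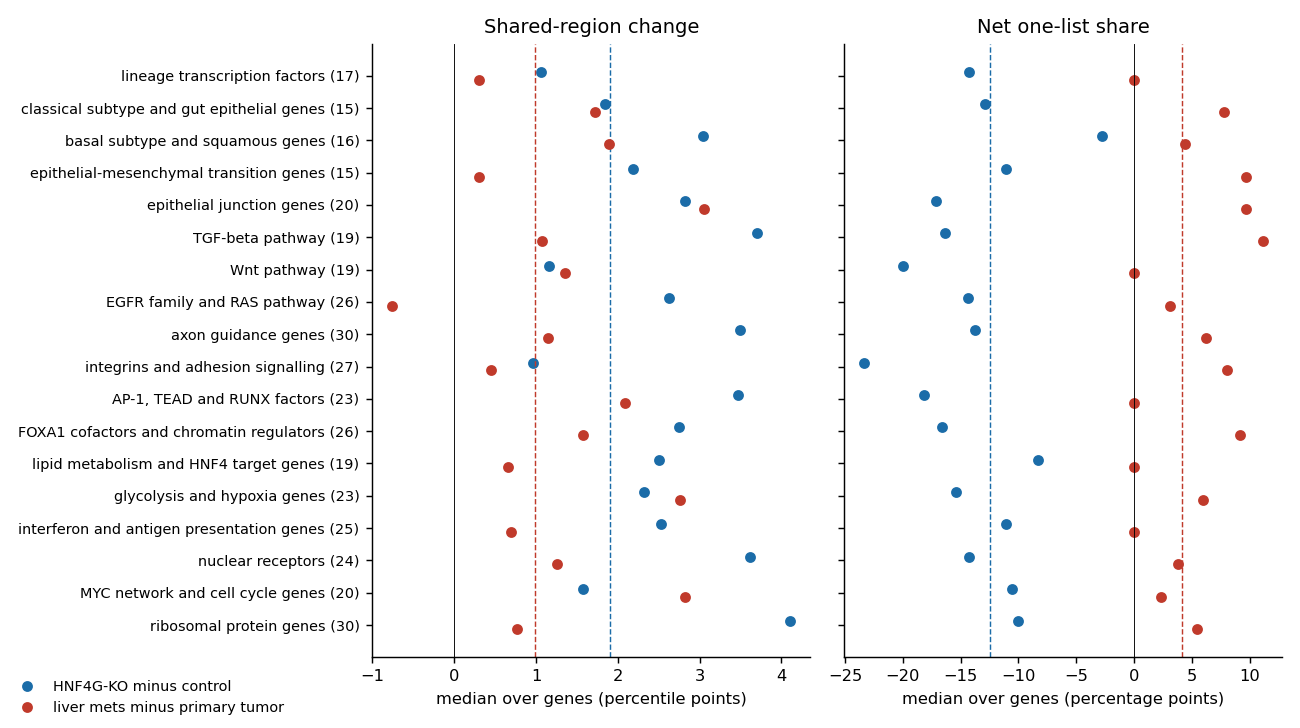
Median shared-region change (left, percentile points) and median net one-list share (right, percentage points) of 18 gene lists in KO minus control (blue) and mets minus tumor (red), with the number of genes kept in brackets. Dashed lines mark the medians of all genes kept. Every list has a net share below 0 in KO, from -23.3 to -2.74, and from 0 to 11.1 in mets.

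Genes with HNF4 sequences on the human side and FOXA sequences on the mouse side coincided about as often as the margins give. CAAAGTCCA, on either strand, was held by 1.43% of 29475 control-only regions, 0.442% of 6556 KO-only regions and 1.60% of all control regions. TGTTTAC was held by 7.59% of 16355 mets-only regions, 5.92% of 5794 tumor-only regions and 8.90% of all mets regions. One-list regions were narrower than shared ones, with a median of 263 bp for control-only against 565 bp for shared control regions. A narrower region has less room for a match. KO-only regions had a median of 234 bp, close to that of control-only regions.

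Of 5907 genes with both a control-only and a mets-only region, 192 had the HNF4 sequence in a control-only region and 658 the FOXA sequence in a mets-only region. Both held near 19 genes, which is 9.90% of the first set and 2.89% of the second, where the margins give 21.4. CCDC6, ATL2 and ARHGEF28, whose sequences are printed above, are among these. Control-only and tumor-only HNF4 sequences met near 4 genes (2.23 from the margins), and KO-only and mets-only FOXA sequences near 26 (23.7).

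In the mouse, the 268 genes with an HNF4 sequence in a control-only human region had a median shared-region change of 1.75 points (quartiles -0.853 and 5.33), against 0.986 (-1.51 and 3.75) for 7878 genes with control-only regions that lacked it. Their median net share was 4.46 points in both groups and turnover 18.8% against 16.7%. In the human comparison, the 743 genes with a FOXA sequence in a mets-only region had a median change of 1.19 points against 1.97 for 6010 without it, and a net share of -13.7 against -12.5. Within-group quartiles overlapped almost wholly in each case. The 72 genes with the HNF4 sequence in a tumor-only region, a group looked at after the others, had a median human change of -0.0215 points (quartiles -3.18 and 2.36) against 1.90 for 4805 genes with tumor-only regions that lacked it, and a median net share of -19.6 against -12.5.

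**Figure D5:**
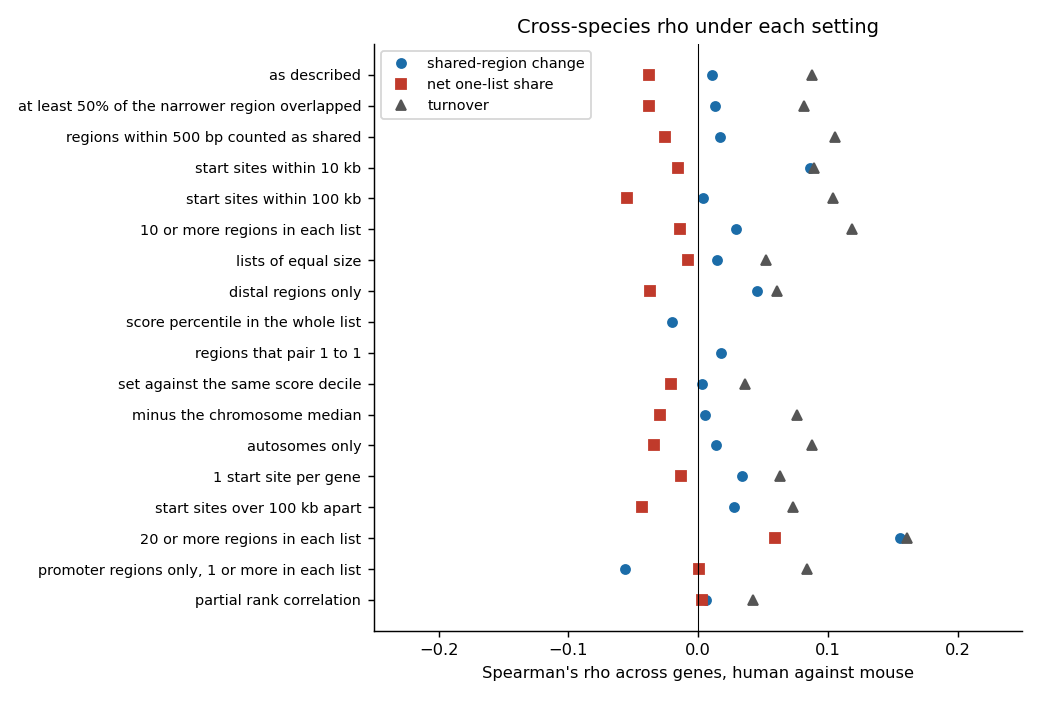
Spearman's rho across genes between the human and the mouse comparison (x axis) for the shared-region change (circles), the net one-list share (squares) and turnover (triangles) as described in the text and under each other setting (y axis). Turnover stays above 0 in every row, from 0.0362 to 0.161, while the other measures lie on both sides of 0.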

How the data were processed

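ATAC-seq was done on 16 samples in 4 groups, and 1 BED list of regions per group was deposited. The values used were the region score that the authors deposited, whose scale is not stated in the sources used here and which served only for ranks. The submitters' processing notes name Bowtie2 2.2.6, MACS2 2.1.1.20160309, DiffBind and the builds hg38 and mm10. How the samples of a group were combined is not given there, and the ATAC-seq methods name HPAF-II only. Omni-ATAC libraries were sequenced on a NovaSeq.

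Genes and start sites came from GENCODE (human v44, mouse vM21), start sites from all transcripts. All regions lay within the chromosomes of hg38 (24) and mm10 (21). Gene pairs were matched by symbol, so orthologs under other symbols are absent. Some items the rule names are not reported here. Regions were paired by longest overlap. Spearman's rho and Wilson intervals were computed in Python 3.11.15 with scipy 1.17.1, numpy 2.4.6 and pandas 2.3.3, and the gene values were tested on simulated data with planted relations. Named genes were the 5 (change) or 3 (net share) most extreme in each corner, at least 200 kb apart, 8 fixed genes, and members of the 18 lists. Further list members were picked as examples after their values were seen. Members and lists were chosen with earlier results of these data known.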

Additional observations from a re-analysis of the deposited data

How the results depend on the processing

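No paired analysis was possible because each group has 1 region list, and for the same reason no replicate could be left out. Over 17 other settings the rho of the shared-region change ran from -0.0567 to 0.156, over 15 that of the net share from -0.0546 to 0.0592 and over 15 that of turnover from 0.0362 to 0.161. The settings of 20 or more regions per list, of promoter regions only and of direction relative to the median gene were chosen after seeing the data. The cause of each move was not tested.

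The rho of the shared-region change turned to -0.0198 with percentiles ranked in the whole list and to -0.0567 at promoter regions only (10230 genes). It moved to 0.0861 with start sites within 10 kb (1023 genes), 0.0452 at distal regions, 0.0337 with 1 start site per gene and 0.156 with 20 or more regions in each list (108 genes). The rho of the net share turned to 0.0592 with 20 or more regions, 0.00093 at promoters and 0.00259 as a partial rank correlation, and moved to -0.0158 with 10 kb, -0.0141 with 10 or more regions, -0.00815 with lists of equal size and -0.0134 with 1 start site per gene. The rho of turnover moved to 0.119 with 10 or more regions, 0.161 with 20 or more, 0.0523 with lists of equal size, 0.0608 at distal regions, 0.0362 against the same score decile, 0.0633 with 1 start site per gene and 0.0422 as a partial rank correlation.

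The share of genes with the same direction depends on how many changes are positive in each comparison. What follows from that is given here for the main setting only (54.9% beside 55.7%). The shares below therefore do not measure a relation between the settings alone. The share was 30.4% with whole-list percentiles, where rho was -0.0198, and 48.3% at promoters. It was 59.3% with 10 kb, 60.3% with 10 or more regions, 69.4% with 20 or more, 53.5% with lists of equal size, 50.9% against the same score decile, 51.3% minus the chromosome median and 50.6% relative to the median gene.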

Other observations

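By the shared-region change, medians of whole chromosomes spread over a wider range than those of the 18 gene lists, which ran from 0.960 to 4.11 points in KO and from -0.758 to 3.05 in mets. In KO against control the median shared-region change of a chromosome's genes was lowest on human chromosome 4 (-2.04 points, 232 genes) and highest on chromosome 10 (4.33 points, 352 genes). In mets against tumor it was -3.13 points on mouse chromosome 8 (535 genes) and 4.46 points on chromosome 10 (428 genes), while the median net share was 13.9 percentage points on chromosome 13 (220 genes) against 4.17 over all genes.

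Promoter and distal shared regions near genes kept stood in different order in the 2 settings. The median change was 2.76 points at promoter and 0.781 at distal regions in KO against control, and 0.113 at promoter and 1.53 at distal regions in mets against tumor. These are values of 1 list pair per species, with no replicate.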
